A study of Homo sapiens with 2 samples.

Results

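Breast cancer stem cell markers are genes used to find, or thought to maintain, the small share of tumour cells that can seed a new tumour. The set described here held 10 genes picked by name: CD44, CD24, PROCR, ALDH1A1, ALDH1A3, PROM1, SOX9, KLF4, BMI1 and BCL11A. The table held a row for 9 of the 10, among 29452 gene rows in all, and ALDH1A1 was not analysed here. Levels were measured by RNA sequencing in MDA-MB-231, an established human breast cancer cell line of the triple-negative class, which lacks the estrogen and progesterone receptors and HER2 amplification. One library came from cells carrying a short hairpin RNA against the kinase gene CDK14 (CDK14-sh) and 1 from cells carrying a scramble control hairpin. Both groups thus carried a hairpin and shared the same parental line. Which hairpin sequence was used, and whether the cells were a clone or a pool, is not given in the sources used here.

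The first 2 markers are surface proteins: tumour-seeding cells of the breast are often sorted as high for CD44, the hyaluronan receptor, and low for CD24, a small mucin-like protein anchored by lipid. PROCR, the endothelial protein C receptor, marks a mammary stem cell population, and PROM1 (CD133, prominin-1) is a membrane protrusion protein used to sort stem cells of several tumours. The ALDH1A enzymes oxidise retinaldehyde to retinoic acid, and their activity is the basis of a dye assay for stem-like cells. SOX9, KLF4 and BCL11A are transcription factors of mammary progenitor or pluripotent cells, and BMI1 is a subunit of Polycomb repressive complex 1, which silences genes through histone H2A ubiquitination. MDA-MB-231 is known as a line in which most cells already show the CD44-high, CD24-low surface pattern.

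The sequences before an annotated start of 3 surface markers are shown because these genes head the results: CD44 is the most abundant member, CD24 had the lowest ratio between the libraries and PROCR the highest. Each is the 250 bases before a start that RefSeq gives for the gene on GRCh38.p14, read 5′ to 3′ on the gene's strand, where the start base itself is left out. The CD44 window lies at chr11:35138921-35139170 on the plus strand, the CD24 window at chr6:106975628-106975877 on the minus strand and the PROCR window at chr20:35171822-35172071 on the plus strand. RefSeq's CD44 start lies 301 bases inside the gene as counted here, so the CD44 window lies wholly within the span of its row and not upstream of it. CD24 has 3 windows, and the one whose start matches the end of its row is shown. Capitals mark GGGCGG, the GC box of SP1 factors, or TATAAA, the TATA box, on either strand.
CD44: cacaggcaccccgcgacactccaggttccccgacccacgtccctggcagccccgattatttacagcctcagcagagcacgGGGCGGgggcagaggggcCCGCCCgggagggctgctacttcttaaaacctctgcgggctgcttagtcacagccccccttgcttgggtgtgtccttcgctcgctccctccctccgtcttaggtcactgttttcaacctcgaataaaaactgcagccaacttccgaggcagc
CD24: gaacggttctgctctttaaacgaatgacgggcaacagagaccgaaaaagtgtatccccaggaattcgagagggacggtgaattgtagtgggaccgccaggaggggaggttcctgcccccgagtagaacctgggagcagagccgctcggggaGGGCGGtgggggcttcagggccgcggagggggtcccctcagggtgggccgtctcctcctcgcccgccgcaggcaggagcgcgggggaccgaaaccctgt
PROCR: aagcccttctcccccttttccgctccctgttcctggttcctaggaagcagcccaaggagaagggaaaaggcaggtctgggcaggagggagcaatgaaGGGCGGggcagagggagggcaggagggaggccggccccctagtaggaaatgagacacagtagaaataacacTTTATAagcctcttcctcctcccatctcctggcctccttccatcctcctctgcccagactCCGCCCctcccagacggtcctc

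The CD44 window held 2 GC boxes, the CD24 window 1 and the PROCR window 2, and a GC box occurred in 42.6% of 34788 windows of the same length over all genes. The PROCR window alone of the 3 held a TATAAA match, on the strand opposite to the gene 82 to 77 bases before the start, a motif found in 10.8% of all windows. The letters of an E-box (CACGTG), an AP-1 site (TGANTCA), a TEAD site (CATTCC), a TCF/LEF site (CTTTGAT), a SOX site (ACAATG) and a KLF site (CCACACC) were searched on both strands too and had no match in these 3 windows. Of the other CD24 windows, which start 162 and 1588 bases inside the gene, the nearer held no motif searched and the farther held 1 TEAD site and 1 GC box. Of the 9 members, 8 matched the RefSeq table, with 18 windows in all, and SOX9 did not. G and C made up 62.4% of the CD44 window, 65.6% of the CD24 window and 60% of the PROCR window, against a median of 58% over all windows. CpG pairs numbered 15 in the CD44 window and 20 in the CD24 window, against 5 in the PROCR window. BMI1 has 2 windows, and the upstream one held 6 GC boxes, 1 E-box and 1 TEAD site. These matches describe letters only.

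Reads assigned to genes, summed over all rows, totalled 15478156 for CDK14-sh and 17217564 for the scramble control. A read in an exon shared by several rows may enter these sums more than once. Levels are in RPKM, the reads of a gene scaled to its exon length and to the library total. The targeted gene, CDK14, was lower with its hairpin, at 0.548 RPKM (58 reads) against 2.48 RPKM (292 reads). Of 7 genes that MDA-MB-231 cells are known to express, among them VIM (vimentin) and AXL, the lowest was EGFR at 14.0 and 16.3 RPKM, while CDH1 (E-cadherin) had no read with the CDK14 hairpin and 2 with the scramble hairpin. Of listed markers of other cells, 1 of 6 fibroblast genes with a row reached 1 RPKM (COL1A1, 1.99 and 1.65 RPKM, while DCN and LUM had no read), and 1 of 4 endothelial genes did (KDR, 1.42 in both, while VWF had no read). Among 4 leukocyte genes, CD68, which encodes a lysosomal protein, stood at 126.4 and 127.9 RPKM, while PTPRC, the pan-leukocyte marker CD45, had 3 reads in each library. Reads in mitochondrially encoded genes made up 17.1% of the summed reads of CDK14-sh and 14.5% of those of the control. With the mitochondrial reads left out of the totals the log2 ratio of CD44 was 0.25 in place of 0.21.

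With 1 library per group there is no replicate error, so values are set side by side and no p-value is given. Parentheses hold 95% Clopper-Pearson or exact Poisson intervals, or an exact conditional interval of the odds ratio for CD44 over CD24 between the libraries. These intervals cover the counting of reads and nothing of the spread between cultures. Higher and lower describe these 2 libraries only, in which fewer cells expressing a gene and less RNA per cell cannot be told apart. A gene was counted as past 2-fold on the log2 ratio after adding 0.1 RPKM to each level, which shrinks the ratio of genes with low values. Only genes that reached 1 RPKM in one of the libraries were counted, and the text calls these measured. A gene near that level can thus be counted through the library where it is higher. Fold values are plain ratios of RPKM. Where a pair of values is given without naming the libraries, CDK14-sh comes first.

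None of the 7 members that reached 1 RPKM was past 2-fold in either direction, while 3.21% of the 14878 genes at that level were at least 2-fold higher in CDK14-sh and 3.47% at least 2-fold lower. At 1.5-fold, PROCR and SOX9 were higher and CD24 was lower, against 9.11% of all genes higher and 9.55% lower at that size. These counts of 2 and 1 among 7 markers were not tested against the other genes. The median log2 ratio of the 7 was 0.21, with 5 above 0 and 2 below. The 5 include KLF4, for which no direction is given below. Over all 14878 genes at that level the median was 0.04, with 8135 above 0 and 6743 below. PROM1 and BCL11A did not reach 1 RPKM and are given below as levels.

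**Figure D1:**
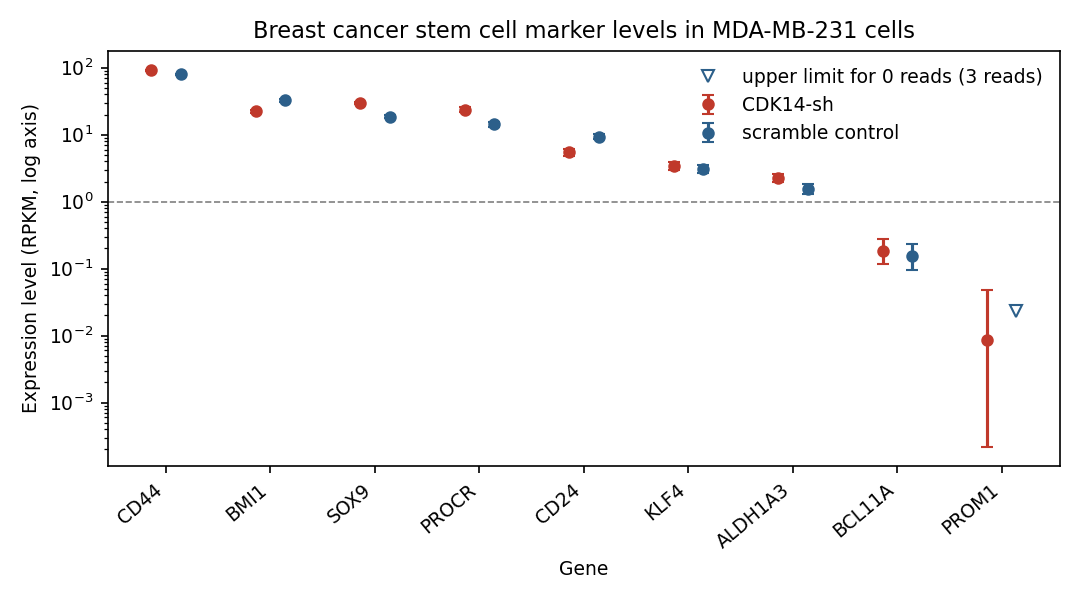
Level of each marker in the CDK14-sh library (red) and the scramble control (blue), in RPKM on a log axis, with bars for the 95% exact Poisson counting interval and a dashed line at 1 RPKM. CD44 lies highest at 92.2 and 79.7 RPKM, 7 markers lie above the line in both libraries, and the open triangle is the limit that 0 reads of PROM1 allows.

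The levels spanned from among the most abundant transcripts of these cells to none detected. In the scramble control the order from high to low was CD44, BMI1, SOX9, PROCR, CD24, KLF4, ALDH1A3, BCL11A and PROM1. In CDK14-sh, BMI1 stood behind SOX9 and PROCR as well as CD44. No neighbours from CD44 down to BCL11A had overlapping counting intervals in the control, while PROCR and BMI1 overlapped in CDK14-sh. This order uses the summed exon length of each row, which counts every annotated exon and so understates genes that use few of them, such as CD44 with its many variable exons.

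CD44, the hyaluronan receptor, lies on chromosome 11 from 35138870 to 35232402 (GRCh38, plus strand, protein-coding, ENSG00000026508). Its level was 92.2 RPKM (14350 reads) with the CDK14 hairpin and 79.7 RPKM (13807 reads) with the scramble hairpin. Its level was above 98.6% of all rows in CDK14-sh and above 98.3% in the control. The difference was small, 1.16-fold higher in CDK14-sh (1.13 to 1.18), with a narrow interval that reflects the depth of this gene alone. Of the genes with at least 30 reads, 30.7% had a ratio at least as high. The opposite-strand row RP1-68D18.4, with 649 and 586 reads, shares 0.835% of the CD44 exon bases.

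CD24 lies on chromosome 6 from 106969831 to 106975627 (minus strand, ENSG00000272398). Its level was 5.42 RPKM (260 reads) with the CDK14 hairpin and 9.34 RPKM (498 reads) with the scramble hairpin, which is 1.72-fold lower (1.48 to 2.01). Only 4.4% of genes with at least 30 reads had a ratio as low. CD24 has near-identical processed copies elsewhere in the genome, and how reads matching several places were treated is not given in the sources used here, so its level is uncertain. CD24 is also a marker of luminal breast cells, and 11 such genes summed to 79.9 RPKM in CDK14-sh and 135.0 RPKM in the control. The highest value of a single gene was 55.3 RPKM, so abundant genes weigh most in these sums. Of the 6 measured, 2 had a log2 ratio above 0 and 4 below. SPDEF, an epithelial ETS factor, at 1.72 and 6.1 RPKM, was the 1 past 2-fold lower, and none was past 2-fold higher. CDH1, PGR and ESR1 were near 0 in both libraries. The part of these genes in the CD24 ratio was not tested.

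The pair is used together in sorting, so the ratio of their RPKM was taken within each library. CD44 exceeded CD24 by 17.0-fold in CDK14-sh (15.0 to 19.3) and by 8.54-fold in the scramble control (7.81 to 9.35). The ratio was 1.99 times as large in CDK14-sh (1.71 to 2.33), a value that does not depend on gene length or on the scaling between the libraries. The CD24 part of it was 1.72-fold and the CD44 part 1.16-fold. These are transcript levels of a whole culture and not a count of cells with the surface pattern.

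PROCR lies on chromosome 20 from 35172073 to 35216240 (plus strand, ENSG00000101000). Its level was 23.6 RPKM (619 reads) with the CDK14 hairpin and 14.3 RPKM (417 reads) with the scramble hairpin, which is 1.65-fold higher (1.46 to 1.87). This was the highest ratio of the markers, and 3.95% of genes with at least 30 reads lay as high. A row on the opposite strand, RP11-42O4.2, shares 12.9% of the PROCR exon bases and stood at 20.4 RPKM against 12.2 RPKM, a 1.66-fold ratio like that of PROCR itself. Whether the counting used strand is not given in the sources used here, so the reads of this pair cannot be told apart.

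PROM1, encoding prominin-1, lies on chromosome 4 from 15963076 to 16084378 (minus strand, ENSG00000007062). A single read (1) fell in it with the CDK14 hairpin and 0 with the scramble hairpin. A count of 0 allows up to 3 reads, or 0.0234 RPKM, in the control, so the gene was not detectable at this depth and no fold is given. Its relative PROM2 was low as well, at 0.16 and 0.259 RPKM (15 and 27 reads). FGFBP2, a neighbour that shares 2.23% of the PROM1 exon bases, likewise had 1 and 0 reads.

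ALDH1A3, a retinaldehyde dehydrogenase, lies on chromosome 15 from 100877714 to 100916626 (plus strand, ENSG00000184254). Its level was 2.29 RPKM (205 reads) with the CDK14 hairpin and 1.56 RPKM (155 reads) with the scramble hairpin, which is 1.47-fold higher (1.19 to 1.82). Of genes with at least 30 reads, 8.74% had a ratio as high. Its row shares 28.6% of its exon bases with the rows RP11-66B24.4 (opposite strand, 129 against 106 reads) and RP11-66B24.8 (same strand, 14 against 6 reads). ALDH1A2, the other ALDH1A enzyme with a row, had 1 read with the CDK14 hairpin and 0 with the scramble hairpin, so ALDH1A3 was the only enzyme of this class analysed here with a level above the limit of detection.

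**Figure D2:**
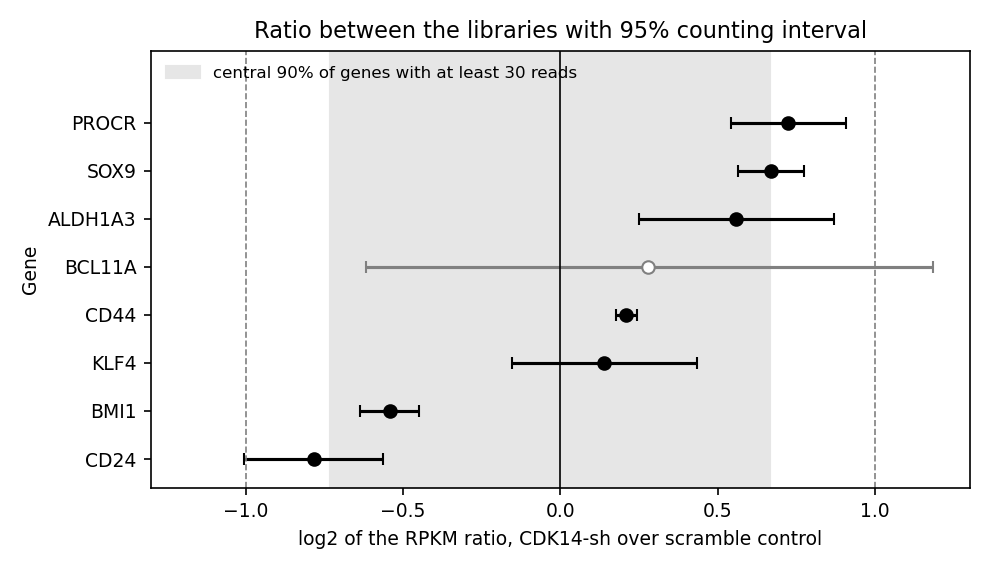
Ratio of RPKM between CDK14-sh and the scramble control on a log2 axis for 8 markers, with 95% Clopper-Pearson counting intervals, dashed lines at 2-fold and a grey band from the 5th to the 95th percentile of genes with at least 30 reads. PROCR lies outside the band on the high side, SOX9 at its upper edge and CD24 outside on the low side. The points are plain ratios, while the band was taken after adding 0.1 RPKM. On the measure of the band SOX9 stood at 0.664, just inside the limit of 0.666. BCL11A (open symbol, 24 and 22 reads) has the widest interval, from 0.652 to 2.27 as a ratio.

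SOX9, a transcription factor of mammary progenitors and cartilage, lies on chromosome 17 from 72121020 to 72126420 (plus strand, ENSG00000125398). Its level was 29.6 RPKM (1803 reads) with the CDK14 hairpin and 18.6 RPKM (1263 reads) with the scramble hairpin, which is 1.59-fold higher (1.48 to 1.71). Of genes with at least 30 reads, 5.04% had a ratio as high. The SOX9 row shares no exon base with another row, and SOX9-AS1, the antisense gene nearby, had 3 and 6 reads.

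KLF4, one of the factors used to reprogram cells to pluripotency, lies on chromosome 9 from 107484852 to 107490482 (minus strand, ENSG00000136826). Its level was 3.43 RPKM (194 reads) with the CDK14 hairpin and 3.11 RPKM (196 reads) with the scramble hairpin. The ratio was 1.10-fold higher (0.898 to 1.35), an interval that reaches from slightly lower to 1.35-fold higher. Its log2 ratio was 0.13, and -0.01 with both libraries scaled to a common sum of RPKM, so no direction is given.

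BCL11A, a zinc finger repressor described in triple-negative breast cancer, lies on chromosome 2 from 60451167 to 60553567 (minus strand, ENSG00000119866). Its level was 0.185 RPKM (24 reads) with the CDK14 hairpin and 0.153 RPKM (22 reads) with the scramble hairpin. The counting interval of the ratio ran from 0.652 to 2.27, so a difference within 2-fold could not be seen at this depth.

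BMI1 lies on chromosome 10 from 22321211 to 22331484 (plus strand, ENSG00000168283). Its level was 22.2 RPKM (1475 reads) with the CDK14 hairpin and 32.4 RPKM (2390 reads) with the scramble hairpin, which is 1.46-fold lower (1.36 to 1.56). Of genes with at least 30 reads, 9.22% had a ratio as low. The readthrough row COMMD3-BMI1 lies wholly inside exons of BMI1 and its upstream neighbour COMMD3, yet held 1460 and 2118 reads, and was 1.3-fold lower (1.22 to 1.39). COMMD3 had 579 and 683 reads, 1.06-fold lower (0.948 to 1.19). Over the table, 498 of 505 rows that lie wholly inside same-strand exons of other rows held reads, so reads in shared exons are not missing from these rows and may be counted more than once.

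**Figure D3:**
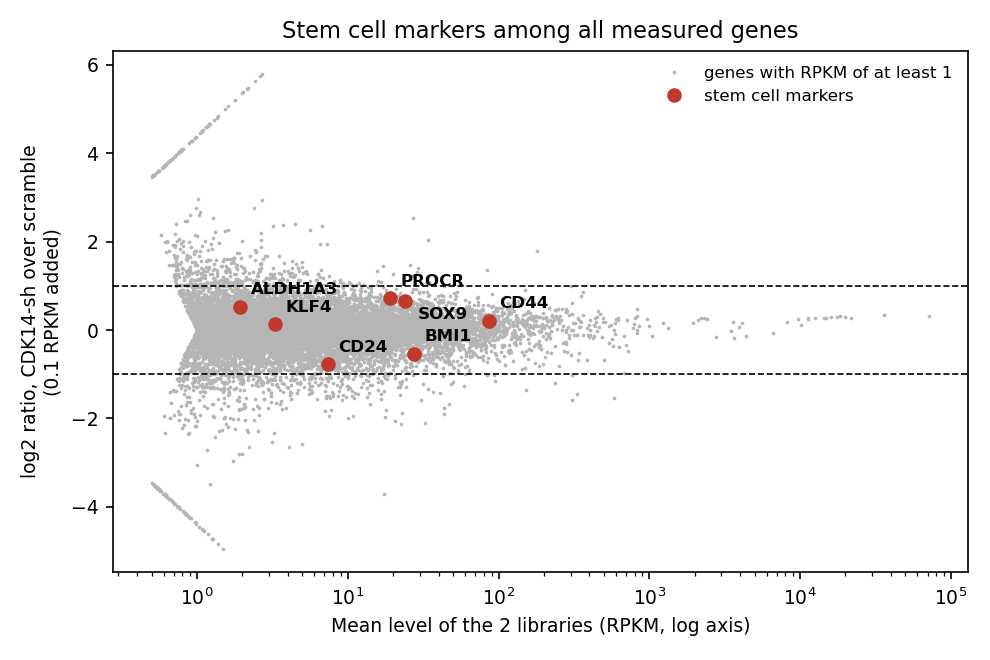
Log2 ratio between the libraries (vertical, 0.1 RPKM added) against the mean level of the 2 libraries (RPKM, log axis) for the 14878 measured genes (grey) and the 7 markers among them (red). All 7 markers lie between the dashed lines at 2-fold, with CD24 at -0.77 and PROCR at 0.72.

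The genes that act beside the markers were read from 11 lists holding 180 distinct symbols. Of the 103 measured, 2 (1.94%) were past 2-fold higher and 7 (6.80%) lower, with a median log2 ratio of 0.02. Over all 14878 measured genes the shares were 3.21% higher and 3.47% lower, and these stand beside each list count at 2-fold below. At 1.5-fold the shares over all measured genes were 9.11% higher and 9.55% lower. These lists were drawn up with results of the same libraries known, so their counts are a description.

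Among the protein C pathway genes, which act with PROCR at the cell surface, 1 of 7 measured genes was past 2-fold lower. This was F2R, encoding the thrombin receptor PAR1 that activated protein C also cleaves, which stood at 4.74 and 10.1 RPKM, 2.13-fold lower (1.86 to 2.45). PROS1, encoding the cofactor protein S, was 1.44-fold higher, while THBD, encoding thrombomodulin, stood at 22.9 and 21.9 RPKM and PROC, encoding protein C, had 2 reads in each library. The median log2 ratio of the list was 0.09, and -0.07 with a common sum of RPKM.

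Among genes that make, cut or bind hyaluronan or act with CD44 at the membrane, 1 of 12 measured was past 2-fold, in the lower direction. MSN, encoding moesin, which links the CD44 tail to actin, stood at 84.8 RPKM in CDK14-sh and 217.5 RPKM in the control, 2.56-fold lower (2.5 to 2.63). Its relative EZR, encoding ezrin, was 1.27-fold lower. HAS2, a hyaluronan synthase, stood at 4.52 and 3.29 RPKM, 1.38-fold higher (1.15 to 1.64). ESRP1, a splicing factor that keeps CD44 variable exons in epithelial cells, had 5 reads with the CDK14 hairpin and 0 with the scramble hairpin.

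Of 10 measured aldehyde dehydrogenases outside the marker set, none was past 2-fold, and the median log2 ratio was 0.20 (0.05 with a common sum of RPKM). ALDH18A1, which makes the precursor of proline, was 1.83-fold higher (1.68 to 1.99) and ALDH3A2, which oxidises fatty aldehydes, 1.68-fold lower (1.44 to 1.96). ALDH1B1, a mitochondrial enzyme, stood at 9.99 and 8.17 RPKM, above ALDH1A3 in both libraries.

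Of 10 measured genes of retinoid metabolism and signalling, RDH10 was past 2-fold higher and RXRA past 2-fold lower. Both reached 1 RPKM only in the library where they were higher, so they were counted through that library. RDH10, which makes the substrate of the ALDH1A enzymes, stood at 2.11 RPKM in CDK14-sh and 0.862 RPKM in the control, 2.45-fold higher (1.87 to 3.24). RARB, a retinoic acid receptor whose own gene is a known retinoic acid target, stood at 7.62 and 4.67 RPKM, 1.63-fold higher (1.41 to 1.90). RXRA, the partner receptor, stood at 0.52 and 1.15 RPKM, 2.21-fold lower (1.72 to 2.87). CYP26B1, which breaks retinoic acid down, was 1.56-fold lower (1.23 to 1.97).

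**Figure D4:**
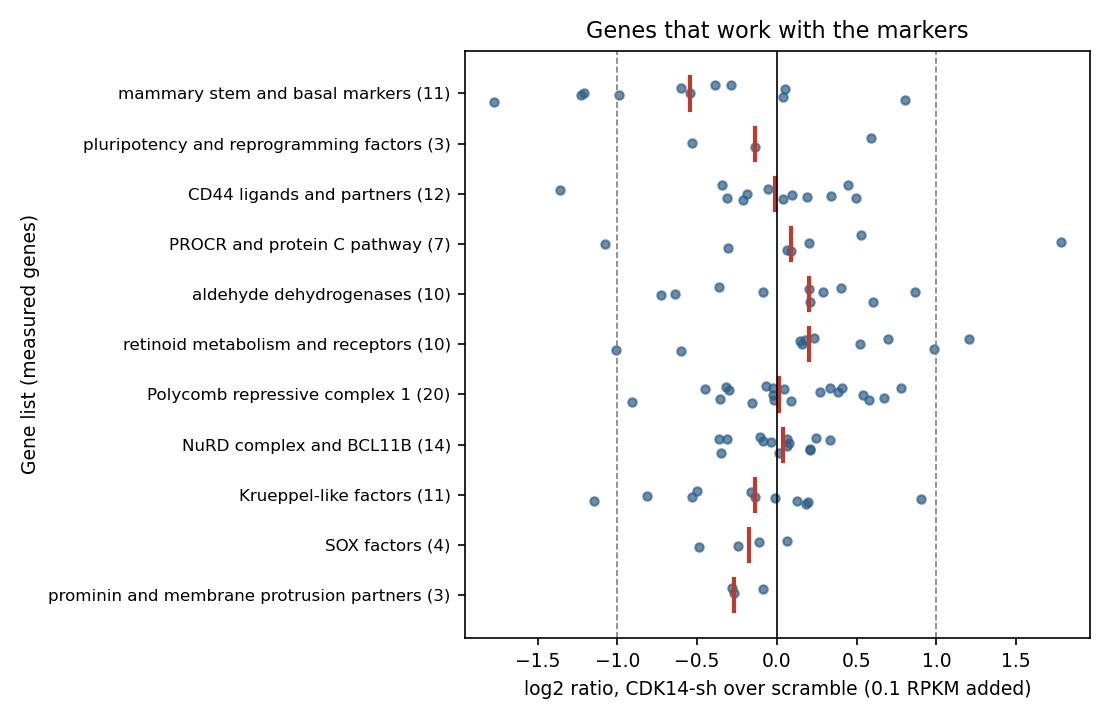
Log2 ratio (0.1 RPKM added) of each measured gene in the 11 lists of genes that act beside the markers, with the number measured in parentheses, a red line at the median of each list and dashed lines at 2-fold. The list of mammary stem and basal markers has the lowest median, -0.54.

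Polycomb repressive complex 1, in which BMI1 works, had 20 measured members besides BMI1 and none past 2-fold, with 10 above 0, 10 below and a median log2 ratio of 0.01. RNF2, the catalytic ubiquitin ligase that BMI1 binds, stood at 2.81 RPKM in CDK14-sh and 5.35 RPKM in the control, 1.90-fold lower (1.59 to 2.29). PHC1 was 1.72-fold higher (1.58 to 1.88) and CBX6 1.60-fold higher (1.45 to 1.77). The NuRD complex, a partner of BCL11A, had 14 measured genes and none past 1.5-fold, against 9.11% higher and 9.55% lower over all measured genes.

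Of 11 measured Krueppel-like factors besides KLF4, only KLF6 was past 2-fold, at 14.2 RPKM in CDK14-sh and 31.5 RPKM in the control, 2.22-fold lower (2.08 to 2.37). KLF7 was 1.93-fold higher (1.64 to 2.28) and KLF3 1.79-fold lower (1.53 to 2.09). SOX factors other than SOX9 were low, with 4 measured, none past 1.5-fold and SOX12 highest at 4.84 and 5.24 RPKM. Of the pluripotency factors, 3 were measured (MYC, KLF2 and KLF5) and none was past 2-fold, while others were near 0: NANOG had 1 and 0 reads, SOX2 5 in each library and POU5F1, encoding OCT4, 8 and 7. MYC stood at 32.7 and 21.7 RPKM, 1.51-fold higher (1.40 to 1.63). For the genes around PROM1, 3 were measured and none was past 1.5-fold. Over all measured genes, 9.11% were at least 1.5-fold higher and 9.55% lower.

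Among other markers of mammary stem and basal cells, 3 of 11 measured (27.3%) were past 2-fold lower and none higher. Over all measured genes 3.47% were lower and 3.21% higher, and the difference in share was not tested. ID4, ID1 and ITGB1, encoding 2 inhibitors of helix-loop-helix factors and integrin beta-1, were 3.72-fold, 2.37-fold and 2.31-fold lower. ID4, at 0.827 RPKM in CDK14-sh, reached 1 RPKM only in the control. ITGA6, the integrin alpha-6 chain (CD49f) used to sort mammary stem cells, stood at 160.3 and 243.3 RPKM, 1.52-fold lower (1.49 to 1.55). CXCR4, a chemokine receptor, stood at 6.33 and 12.7 RPKM, a log2 ratio of -0.99 that is just short of 2-fold. Of the 11 measured, 8 had a log2 ratio below 0 and 3 above. The 3 above 0 were NGFR, 1.76-fold higher (1.49 to 2.09), SNAI2, 1.04-fold higher (0.922 to 1.17), and EPCAM, 1.03-fold higher (0.847 to 1.24). Reads shared with overlapping rows leave some of these ratios uncertain: NGFR shares 27.1% of its exon bases with other rows, PHC1 18.1%, ITGA6 5.37% and RDH10 5.22%.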

How the data were processed

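MDA-MB-231 libraries, 1 with the CDK14 hairpin and 1 with the scramble hairpin, were prepared with a stranded mRNA kit, per the labels' protocols. The authors deposited RPKM per gene with exon positions and summed exon length, per the file headers. Tools and builds named without roles in the submitters' processing notes are featureCounts, Bowtie 0.12.2, GRCh38, mm8 and Subread 1.5.1. Member rows overlapped genes of the same name in GENCODE v29 on GRCh38. Multiplying RPKM by length and by the library's own constant gave whole reads (within 0.01) for 100% of values above 0. Such reads served for counting intervals and a limit of 3 reads for a count of 0. Reads can be PCR copies, which these intervals do not cover.

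All members, CDK14, rows sharing exons with members, and up to 4 genes per list with the largest absolute log2 ratio were named by rule. Other genes with values (ITGA6, NGFR, SNAI2, EPCAM, THBD, PROC, ESRP1, ALDH1B1, ALDH1A2, CYP26B1, PROM2, NANOG, SOX2, POU5F1, SOX9-AS1, COMMD3 and the cell type markers) were chosen after their values were seen. A gene that this rule also names is not reported here. Members and lists were chosen with earlier results of these data known. Calculations were tested on simulated reads. Promoter windows came from RefSeq. Python 3.11.15, numpy, pandas, scipy and matplotlib were used.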

Additional observations from a re-analysis of the deposited data

How the results depend on the processing

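No paired analysis was possible because there was only 1 library in each group. No marker was past 2-fold in any of the settings with that threshold. Among them was 1 added after seeing the data, in which members sharing over 5% of their exon bases with other rows were left out. Leaving out members, asking for at least 5 RPKM or adding 1 RPKM can only keep a count of 0 at 0. Asking for at least 30 reads kept the same markers with the same ratios. All of these settings therefore add no support. At 1.5-fold, 2 markers were higher and 1 lower, list genes numbered 11 and 14, and all genes 1355 and 1421. Over all genes, 478 were at least 2-fold higher and 516 lower. These counts were 176 and 259 with 1 RPKM added, 2173 and 2043 with no filter on level, 83 and 177 with at least 5 RPKM, and 205 and 329 with at least 30 reads, since each of these changes which low genes can pass. List genes past 2-fold numbered 2 higher and 7 lower. The higher count was 1 with 1 RPKM added or with at least 5 RPKM. It was 3 with 0.01 RPKM added or with mitochondrial rows left out of the totals. The lower count ran from 5, with 1 RPKM added or with at least 5 RPKM, to 9 with a common sum of RPKM. A common sum of RPKM gave 322 higher and 732 lower genes and moved the median of all genes by -0.15 log2. Under it CD44 stood at 0.06, SOX9 at 0.51, PROCR at 0.57, CD24 at -0.92 and BMI1 at -0.69, and KLF4 alone among the measured markers changed sign. CD44 exceeded CD24 by 55.2 in CDK14-sh and 27.7 in the control when reads were not divided by length. Of 70 marker values in alternatives, 65 stayed within their counting interval. A change of filter alone leaves a marker's ratio as it was, so part of these 65 could not move. The interval of PROM1, with 0 reads in the control, has no upper limit. The 5 that moved came from rescaling the libraries: CD44 in each such setting, and SOX9 and BMI1 under a common sum of RPKM. Precision is limited by reads: BCL11A and PROM1 were too low for a comparison.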
